A study of Mus musculus with 4 samples.

Results

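The pluripotent cells described here were 393 of 7408 cells of day 5 mouse gastruloids (5.31%, exact 95% Clopper-Pearson interval 4.81 to 5.84%), chosen by their unique molecular identifier (UMI) counts for 4 pluripotency genes. Each had at least 3 UMIs of *Pou5f1* and at least 2 UMIs of *Utf1*, *Dppa5a* and *Dppa3* together. The other 7015 day 5 cells served as the comparison. All of these cells had at least 2000 UMIs and under 20% of them from mitochondrial genes. Gastruloids are aggregates of embryonic stem cells that form derivatives of the germ layers in culture. They were grown from Zx1, a wild-type mouse embryonic stem cell line. A pulse of a Wnt agonist began at day 2 and ended at day 3. Cardiogenic factors (basic FGF, VEGF and ascorbic acid) were added from day 4 and withdrawn before day 11. Gastruloids were pooled, dissociated with trypsin and captured on the 10x Chromium 3' v3.1 system at days 4, 5, 6 and 11. There was 1 library per day, so no difference below has a replicate check or a test, and day and library cannot be told apart. The day 5 library stood apart from those of days 4 and 6 in transcripts such as *Mt1*, *Mt2*, *Cdkn1a* and *Sycp3*, also in sums over the cells not chosen. Such values are given with the other days. Intervals cover counting error only.

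*Pou5f1* (Oct4), together with *Sox2* and *Nanog*, sustains pluripotency in the epiblast and in embryonic stem cells. Naive pluripotency, the state of the preimplantation epiblast, is known for genes such as *Zfp42* (Rex1), *Klf2* and *Esrrb*, and the primed state after implantation for *Otx2*, *Fgf5* and *Dnmt3b*. Primordial germ cells keep or regain part of the pluripotency network, *Dppa3* (Stella) included, and add germ cell regulators such as *Prdm1* (Blimp1), *Tfap2c* and *Nanos3*, followed later by *Ddx4* and *Dazl*.

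Promoters of *Nanog* and *Zfp42*, which the rule did not use and which were among the genes highest in the pluripotent cells, are shown with the 7-letter motif ATGCAAA, the core of the octamer that *Pou5f1* and other POU factors are known to bind. RefSeq promoters (mouse GRCm38.p6, 250 bases before to 50 after a start site) were searched on both strands, so TTTGCAT counted too. The motif was in at least 1 promoter of 1416 of 27025 genes (5.24%). Of the 30 genes of the general and naive pluripotency lists, 19 had a promoter in the RefSeq table and 4 of these held the motif (*Nanog*, *Sox2*, *Zfp42* and *Spp1*). Capitals mark the motif, which lay 75 bases before the start in *Nanog* and 185 before it in *Zfp42*, in the TTTGCAT orientation in both. A match is a run of letters and not a shown binding site. The *Nanog* window was chr6:122707239-122707538 on the plus strand and the *Zfp42* window chr8:43306960-43307259 on the minus strand, both 5′ to 3′.
Nanog: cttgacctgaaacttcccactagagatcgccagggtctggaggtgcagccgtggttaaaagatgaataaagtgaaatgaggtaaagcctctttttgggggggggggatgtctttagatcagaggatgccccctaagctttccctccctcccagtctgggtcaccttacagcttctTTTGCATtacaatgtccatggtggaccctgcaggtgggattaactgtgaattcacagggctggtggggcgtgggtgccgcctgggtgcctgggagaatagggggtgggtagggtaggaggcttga
Zfp42: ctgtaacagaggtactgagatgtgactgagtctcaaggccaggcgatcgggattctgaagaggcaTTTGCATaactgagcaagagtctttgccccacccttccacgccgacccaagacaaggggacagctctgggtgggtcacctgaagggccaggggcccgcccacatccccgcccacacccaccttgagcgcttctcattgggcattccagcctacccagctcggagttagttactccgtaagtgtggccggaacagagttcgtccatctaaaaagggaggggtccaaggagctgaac

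The values that chose the cells are given as a description. *Pou5f1* ran from 3 to 65 UMIs per pluripotent cell with a median of 11, and its summed level was 309 counts per 1000000 UMIs (CPM) against 4.99 CPM in the other cells. *Dppa5a*, which encodes a KH-domain protein of pluripotent cells, ran from 0 to 784 UMIs with a median of 140 (4101 against 30.3 CPM). *Utf1*, a chromatin-associated factor, ran from 0 to 65 UMIs with a median of 9 (276 against 1.81 CPM). *Dppa3* was the sparsest of the 4, with a median of 1 UMI, a highest value of 239 and 104 against 1.18 CPM. It was detected in 203 pluripotent cells, whereas *Dppa5a* was detected in 387 and *Utf1* in 370. All 3 panel genes were present in 201 cells, *Utf1* and *Dppa5a* without *Dppa3* in 164, and *Dppa5a* alone in 21. In 5 cells *Utf1* was the only panel gene, so those cells had neither *Dppa3* nor *Dppa5a*.

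Near the limits of the rule the levels were lower. The 33 cells with exactly 3 *Pou5f1* UMIs had 117 CPM of *Zfp42*, and the 64 cells left out with 2 *Pou5f1* UMIs and 2 or more panel UMIs had 35.8 CPM. At the panel limit, 15 chosen cells with 2 or 3 panel UMIs had 16.2 CPM of *Zfp42* and no *Sox2* UMI, and their mesoderm genes summed to 339 CPM. The 19 cells left out with 1 panel UMI had 7.69 CPM of *Zfp42* and 188 CPM of mesoderm genes, and the 36 with none had 7.46 and 238 CPM. The cells just inside the panel limit were thus higher than those just outside it in both, and their *Zfp42* was far below the 229 CPM of all 393 cells.

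Across 15496 genes with at least 50 UMIs in the day 5 library, the 4 rule genes left out, 287 were at least 2 times higher in the pluripotent cells (1.85%) and 127 were at least 2 times lower (0.82%). These calls compare log2(CPM + 10), which understates the ratio of low genes, and the median over all genes was -0.03 on this log2 scale. Genes that follow *Pou5f1* can differ here because the cells were picked by it, so the counts describe the picked cells and test nothing. Each list of genes below is read against 1.85% and 0.82% unless another comparison is named.

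General pluripotency genes were higher as a group, with 8 of 11 counted genes called higher, none lower and a median log2 ratio of 2.57. *Sox2*, the HMG-box partner of *Pou5f1*, had 0 to 28 UMIs per pluripotent cell with a median of 5, and 150 CPM (95% Poisson interval 144 to 156) against 3.99 CPM, a ratio of 37.6 (34.8 to 40.6). *Nanog* had 0 to 21 UMIs with a median of 1 and was detected in 247 of the 393 cells. Its level was 65.7 CPM (61.9 to 69.7) against 0.875 CPM, a ratio of 75.1 (64.4 to 88.0). *Tdgf1*, the *Nodal* co-receptor Cripto, was at 174 against 2.38 CPM, *Gdf3*, a TGF-beta family ligand, at 51.3 against 0.305 CPM, and *Dppa4* at 73.7 against 4.14 CPM. The 3 genes not called were *Sall4* (47.3 against 21.2 CPM), *Trim28* (172 against 148 CPM) and the RNA-binding factor *Lin28a* (49.2 against 51.5 CPM), all of which the other day 5 cells also contained.

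Naive pluripotency genes were higher in 14 of 18, with none lower and a median log2 ratio of 1.53. Summed over the list, the level was 1193 CPM in the pluripotent cells and 113 CPM in the others. *Zfp42*, a zinc finger gene used as a marker of the naive state, had 0 to 57 UMIs with a median of 6 and was at 229 CPM (222 to 237) against 2.95 CPM, a ratio of 77.7 (71.5 to 84.6). *Klf2*, a Krüppel-like factor of the naive network, was at 213 (206 to 220) against 2.32 CPM, and *Tdh*, threonine dehydrogenase, at 229 (222 to 237) against 1.61 CPM. The orphan receptor *Esrrb* was at 22.7 against 0.155 CPM, and *Klf4* and *Klf5* at 34.2 against 7.08 and 30.3 against 8.04 CPM. *Prdm14* was sparse (3.0 against 0.141 CPM), and *Tbx3* was at 55.1 CPM against 45.4 CPM in the other cells, where it is also a gene of mesoderm. With each cell thinned to 5000 UMIs, *Zfp42* was detected in 51.4% of pluripotent cells, 1.5% of other cells and 1.10% of 181 endothelial cells, which should lack it. Those endothelial cells were defined by 5 or more UMIs of *Cdh5*, *Esam* and *Cldn5* and had a median of 37630 UMIs, against 35755 in the pluripotent cells. Unthinned shares were 84.0%, 5.56% and 6.08%.

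The genes whose values followed the rule genes most closely from cell to cell were mostly the same ones. Over all 7408 cells, Pearson's r with the summed rule genes was 0.806 for *Zfp42*, 0.795 for *Klf2*, 0.783 for *Tdh*, 0.777 for *L1td1*, 0.760 for *Ooep* and 0.728 for *Sox2*. *Mylpf* (0.738) and *Mkrn1* (0.736) also ranked above *Sox2*, and these genes and *Ooep* are in none of the lists. The rule genes also chose the cells, so genes higher in those cells tend to rank high by construction. All these points share 1 library as well, and the r values are a description.

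Primed epiblast genes were mixed in direction. None of 13 was called higher and 3 were called lower, with a median log2 ratio of 0.16 and a summed level of 194 against 280 CPM. The 3 lower genes were *Sox11* (40.4 against 129 CPM), the Wnt effector *Lef1* (25.1 against 66.7 CPM) and *Fgf15* (4.92 against 24.4 CPM), which are also genes of neural and mesodermal progenitors. *Dnmt3b*, a de novo DNA methyltransferase, was at 43.7 against 20.2 CPM, short of the 2 times limit. *Otx2* was at 9.42 against 0.260 CPM and was detected in 65 pluripotent cells. It had the highest ratio of (CPM + 10) in the list (log2 0.92) and was not called because it is a low gene. *Fgf5* had 12 UMIs in all, 0.720 against 0.401 CPM.

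**Figure D1:**
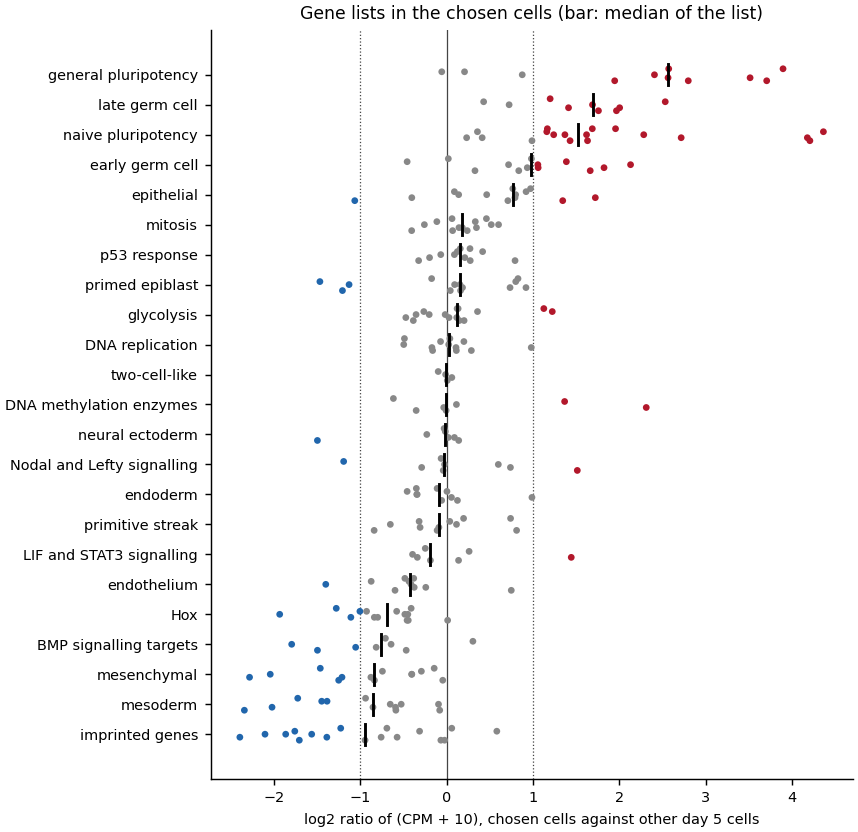
Log2 ratio of (CPM + 10) in the 393 pluripotent cells against the 7015 other day 5 cells, 1 point per counted gene, in 23 gene lists ordered by their median (black bar). Red points are at or above 1, blue points at or below -1 (dotted lines). Pluripotency and germ cell lists lie to the right, with medians of 2.57, 1.69, 1.53 and 0.98, and the mesoderm, mesenchymal and imprinted lists to the left, with medians of -0.85, -0.84 and -0.94.

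Genes of early primordial germ cells were called higher in 6 of 13, with none lower and a median log2 ratio of 0.98. *Tfap2c*, a germ cell regulator, was at 34.4 CPM (31.6 to 37.3) against 2.53 CPM, a ratio of 13.6 (12.1 to 15.3). The RNA-binding genes *Dnd1* and *Nanos3* were at 18.2 against 0.788 CPM and 13.0 against 1.03 CPM. *Alpl*, the tissue-nonspecific alkaline phosphatase, was at 73.4 against 9.04 CPM. *Rhox5* was at 325 against 95.5 CPM, although reads of this clustered homeobox family can be hard to assign to 1 member. *Prdm1* (7.86 against 4.21 CPM), the receptor gene *Kit* (10.8 against 10.5 CPM) and *Sox17* (9.54 against 16.8 CPM) were not called. All 4 of *Prdm1*, *Tfap2c*, *Nanos3* and *Dnd1* had a UMI in 16 of 393 pluripotent cells (4.07%) and in 1 of the 7015 other cells. At 5000 UMIs per cell the number was 0 of 393. *Tfap2c* and *Dppa3* are also expressed in embryonic stem cells, and the list alone does not separate the germ line from naive pluripotency.

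Late germ cell genes were higher in 7 of 9, with none lower and a median log2 ratio of 1.69, and summed to 649 CPM against 83.3 CPM, or 179.8 against 10.6 CPM without *Sycp3*. *Sycp3*, a component of the meiotic chromosome axis, had 0 to 178 UMIs per pluripotent cell with a median of 15, and 469 CPM (458 to 479) against 72.7 CPM. Its thinned detection was 80.4% in pluripotent cells, 22.6% in the others and 24.3% in endothelial cells, so *Sycp3* transcripts were also found widely in this library. *Tex101* and *Stk31* were at 38.7 against 2.13 CPM and 39.2 against 2.57 CPM. The RNA helicase gene *Ddx4* (Vasa) was at 31.7 CPM (29.0 to 34.5) against 2.31 CPM, a ratio of 13.7 (12.1 to 15.5), *Mael*, a piRNA pathway gene, at 26.4 against 1.27 CPM, and *Dazl* at 18.4 against 0.647 CPM. *Sycp1*, a synaptonemal complex gene, was at 13.6 against 0.278 CPM. Thinned shares for *Ddx4* were 12.0%, 1.31% and 1.10% in pluripotent, other and endothelial cells. Of *Ddx4*, *Dazl*, *Mael* and *Stk31*, all 4 had a UMI in 47 of 393 pluripotent cells (12.0%), 7 of the other cells and 0 of the 181 endothelial cells, and in 1 pluripotent cell after thinning. *Piwil2* and *Tdrd1* fell short of the limit, at 6.84 against 0.187 and 5.10 against 1.21 CPM. A pair of meiotic genes outside the lists, chosen after their values were seen, were also high, *Hormad1* at 45.2 against 0.488 CPM and *Smc1b* at 75.9 against 8.51 CPM. Genes of the 2-cell-like state were sparse, with 4 counted, none called and 2.10 against 1.96 CPM in sum.

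Among lineage markers, lower calls were most frequent in the mesoderm and mesenchymal lists, and the endoderm, endothelial and neural lists had 0 or 1 lower call each. The mesoderm list had 5 of 13 genes lower, none higher and a median log2 ratio of -0.85, and its summed level was 109 against 545 CPM. *Hand1*, a transcription factor of lateral and extraembryonic mesoderm, was at 36.6 CPM (33.8 to 39.7) against 226 CPM, a ratio of 0.162 (0.149 to 0.175). *Hand2* was at 8.04 against 63.2 CPM and *Bmp4* at 21.9 against 76.9 CPM. The mesenchymal list had 5 of 13 genes lower and none higher, with the intermediate filament gene *Vim* at 273 against 1366 CPM and *Twist1* at 15.6 against 95.4 CPM. Conversely, the epithelial genes *Epcam* (286 against 79.7 CPM) and *Cdh1* (40.4 against 9.84 CPM) were higher, and the keratin gene *Krt8* was lower (235 against 503 CPM). These were 2 higher and 1 lower of 13 epithelial genes. The epithelial list sum barely differed, at 1083 against 1078 CPM. It was 504, 1433 and 1377 CPM in sub-groups 1, 2 and 3 of the pluripotent cells, described below. Of the Hox list, 4 of 14 genes were lower and none higher, with the lowest ratio in *Hoxb2* (14.5 against 83.3 CPM).

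No gene of the primitive streak list was called (11 counted, median log2 ratio -0.09, 107 against 111 CPM in sum). The streak gene *T* (Brachyury) was at 20.5 against 7.35 CPM. No endoderm gene of 10 was called, 1 of 10 endothelial genes was lower (*Kdr*, 4.86 against 29.2 CPM) and 1 of 7 neural genes was lower (*Irx3*, 5.94 against 34.9 CPM). At 0 UMIs in all 393 pluripotent cells were *Meox1*, *Cer1* and *Cldn8*, of the mesoderm and endoderm lists. These lists show which other transcripts the pluripotent cells held. Their part in the calls above was not tested beyond the values given with the sub-groups of cells.

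Imprinted genes were lower in 8 of 17 with none higher, the lowest median of the 23 lists (log2 -0.94), and summed to 1030 against 2840 CPM. The growth factor gene *Igf2* was at 37.1 CPM (34.2 to 40.1) against 237 CPM, *Dlk1* at 89.3 against 416 CPM, *Peg3* at 121 against 465 CPM and *Mest* at 79.6 against 293 CPM. *Snrpn* (71.4 against 44.4 CPM) and *Impact* (73.2 against 69.8 CPM) were not called and were not below the other cells. Among enzymes of DNA methylation, the cofactor gene *Dnmt3l* was at 41.3 CPM (38.2 to 44.5) against 0.314 CPM and the dioxygenase gene *Tet1* at 81.6 against 25.5 CPM. The maintenance methyltransferase gene *Dnmt1* was at 87.9 against 88.2 CPM. These 2 of 7 were higher and none was lower. DNA methylation itself was not measured.

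Of 8 *Nodal* pathway genes 1 was higher and 1 lower. The ligand *Nodal* was at 41.8 against 8.13 CPM and the co-receptor *Cfc1* at 18.1 against 54.1 CPM, opposite in direction to its paralogue *Tdgf1*. Targets of BMP signalling were lower in 3 of 8, *Bambi* at 53.9 against 212 CPM, *Msx1* at 43.7 against 141 CPM and *Msx2* at 26.0 against 64.7 CPM, while *Id1* was at 190 against 266 CPM. In the LIF and STAT3 list only the kinase gene *Pim1* was called (103 against 31.7 CPM, 1 of 7). Neither the DNA replication list nor the mitosis list had a called gene among 12 and 13, and their medians were 0.03 and 0.18. None of 11 p53 response genes was called (1358 against 1284 CPM in sum). Of 15 glycolysis genes, the glucose transporter gene *Slc2a3* (303 against 124 CPM) and *Pdk1* (47.9 against 16.5 CPM) were higher and none was lower.

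Outside the lists, the genes at 100 CPM or more with the largest ratios were led by *Mylpf*, a muscle myosin light chain gene (266 CPM, interval 258 to 274, against 3.18 CPM), and *Ooep*, a gene of the maternal complex of the oocyte (189 CPM, 182 to 195, against 1.39 CPM). They were followed by the small heat shock gene *Hspb1* (555 against 44.2 CPM), *Mkrn1* (652 against 58.2 CPM), *Chchd10* (436 against 45.9 CPM) and *Ckb*, a creatine kinase gene (269 against 25.3 CPM). Also among the 15 were the metallothionein genes *Mt1* (2927 against 569 CPM) and *Mt2* (1259 against 288 CPM), closely related copies whose reads may be shared, and the glutathione peroxidase gene *Gpx4* (1431 against 442 CPM). In the other direction stood *Igfbp4* (35.7 against 214 CPM), *Pmp22* (23.3 against 138 CPM), the chromatin gene *Hmga2* (72.5 against 336 CPM) and the glypican gene *Gpc3* (68.3 against 255 CPM).

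When all 7408 cells were grouped by expression without the 4 rule genes, 353 of the 393 pluripotent cells (89.8%) lay in 1 of 15 groups. They made up 71.9% of that group's 491 cells. The other 138 cells of the group had too few UMIs of the rule genes to be chosen, with a median of 22554.5 UMIs per cell in all. Their *Pou5f1* was at 59.5 CPM, their *Zfp42* at 79.1 CPM and their naive genes at 588 CPM, between the pluripotent cells and the rest. The remaining 40 of the 393 chosen cells were spread over 9 groups and had weaker pluripotency markers. Their *Zfp42* was at 39.5 CPM, their *Sox2* at 25.5 CPM and their naive genes at 258 CPM, against 1326 CPM of naive genes in the 353. Their mesenchymal genes summed to 1411 against 488 CPM in the 353, and their endoderm genes to 334 against 140 CPM.

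The pluripotent cells differed among themselves. A grouping of the 393 cells alone, made after the data were seen, gave 3 sub-groups at a resolution of 0.5 and 6 at a resolution of 1. The 3 are described here, and the genes that separate them are a description. Sub-group 1 (158 cells, median 34291 UMIs) had the highest naive levels, with a list sum of 2205 CPM, *Zfp42* at 442 CPM, *Sox2* at 282 CPM and *Nanog* at 128 CPM. Its mesoderm genes summed to 30.8 CPM and *Vim* was at 36.8 CPM. Sub-group 2 (125 cells, median 27970 UMIs) had a naive sum of 408 CPM, *Zfp42* at 67.5 CPM and *Sox2* at 53.3 CPM. Streak genes were higher there, 213 CPM in sum against 30.1 CPM in sub-group 1, with *T* at 60.3 against 4.60 CPM, *Fgf8* at 30.5 against 0.851 CPM and *Lefty1*, a *Nodal* antagonist gene, at 21.8 against 2.21 CPM. *Krt8* was at 266 against 19.2 CPM and the BMP target *Id1* at 335 against 78.6 CPM. The late germ cell list summed to 852, 830 and 366 CPM in sub-groups 1, 2 and 3, of which *Sycp3* alone made up 561, 680 and 265 CPM. The other 8 genes of the list summed to 291, 150 and 101 CPM, with *Dazl* at 39.1, 5.25 and 8.09 CPM. All 4 of *Ddx4*, *Dazl*, *Mael* and *Stk31* had a UMI in 19.6%, 4% and 10% of the cells of sub-groups 1, 2 and 3, and none of them had one in 43.7%, 68% and 76.4% of the thinned cells.

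Sub-group 3 (110 cells) stood apart in depth and in the genes it mixed. Its median was 61383.5 UMIs per cell, and 79 of its cells (71.8%) exceeded 50000 UMIs, against 10.7% of the other day 5 cells. By simulated doublets, 70 of its cells (63.6%) were in the top 8% of the library, against 0 in sub-group 1 and 2 in sub-group 2. It held 781 CPM of naive genes beside 204 CPM of mesoderm genes, 1035 CPM of mesenchymal genes and 330 CPM of endoderm genes, with the endoderm gene *Spink1* at 223 CPM, *Ttr* at 21.8 CPM and *Dlk1* at 196 CPM. *Vim* was at 558 CPM, less than in the other day 5 cells. Of its cells 28 lay outside the group that held most pluripotent cells. Without sub-group 3 the called genes numbered 409 higher and 332 lower of 15496, and these included all 287 and 127 of the full comparison. List counts without sub-group 3 are read against these larger numbers, not against 1.85% and 0.82%. Without it, the mesoderm sum was 43.9 CPM, 8.04% of the level in the other cells, and 3 endoderm genes were called lower, with a sum of 49.6 against 186 CPM. With the top 8% of doublet scores removed instead, 1 endoderm gene was called higher and 0 lower, beside 346 higher and 231 lower of all 15496. Of the primed epiblast list, 2 of 13 genes were called higher and 3 lower without sub-group 3, against 0 and 3 with it. No germ cell gene called higher lost its call without it, and the counts were then 8 of 13 early genes, with 1 lower, and 7 of 9 late genes.

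**Figure D2:**
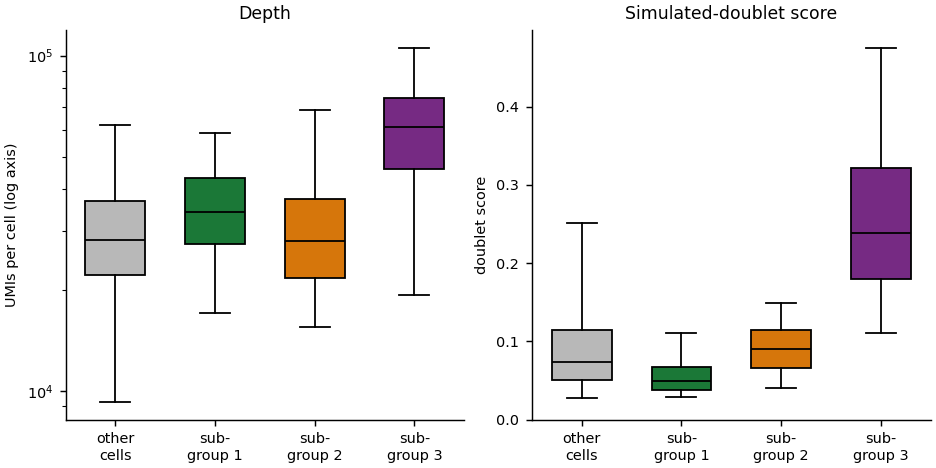
UMIs per cell (left, log axis) and doublet score from simulated doublets (right) in the 7015 other day 5 cells and in the 3 sub-groups of pluripotent cells. Boxes span the quartiles with the median as a line and whiskers the 5th to 95th percentiles over cells. Sub-group 3, with a median of 61383.5 UMIs, stands above the rest in both.

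**Figure D3:**
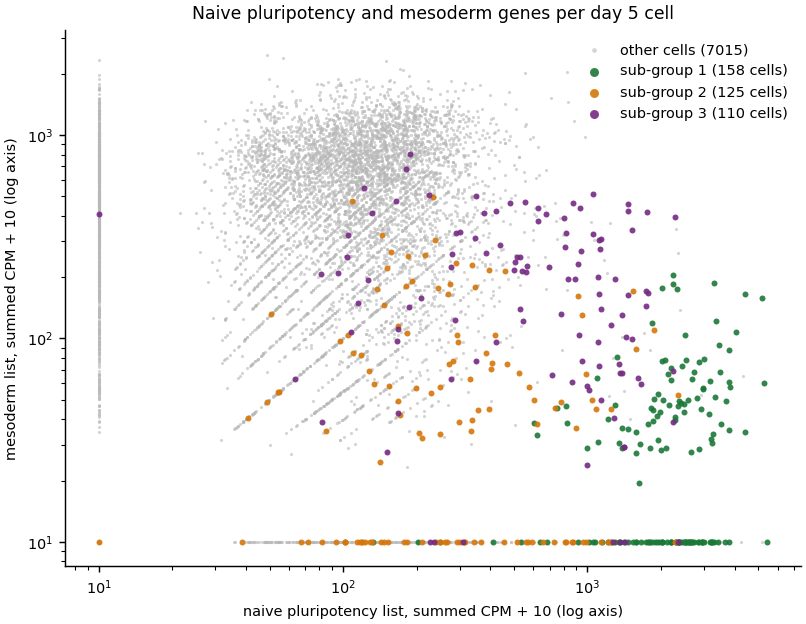
Each point is 1 day 5 cell, placed by its summed CPM over the 18 naive pluripotency genes (x) and the 13 mesoderm genes (y), both plus 10 on log axes. Sub-group 1 lies at the right and low, sub-group 2 further left, and sub-group 3 reaches up toward the 7015 other cells (grey).

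Cell by cell, the naive sum had a median of 986 CPM in pluripotent cells, ranging from 0 to 5429 CPM, against a median of 92.0 CPM in the other cells, which reached 5193 CPM in the highest. The ranges thus overlapped, although the middle 50% of the pluripotent cells (279 to 2012 CPM) and of the other cells (44.3 to 150 CPM) did not. Medians were 2229, 256 and 737 CPM in sub-groups 1, 2 and 3. The mesoderm sum had a median of 37.6 CPM in pluripotent cells and 478 CPM in the others, and the medians of the sub-groups were 18.9, 34.8 and 185 CPM. *Zfp42*, *Klf2*, *Nanog* and *Sox2* were all detected in 206 pluripotent cells (52.4%), of which 127 were in sub-group 1, 16 in sub-group 2 and 63 in the deeper sub-group 3, and in 14 other cells. In thinned cells the number was 35 of 393 (8.91%), with 30, 0 and 5 in sub-groups 1, 2 and 3, and 3 among the other cells.

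**Figure D4:**
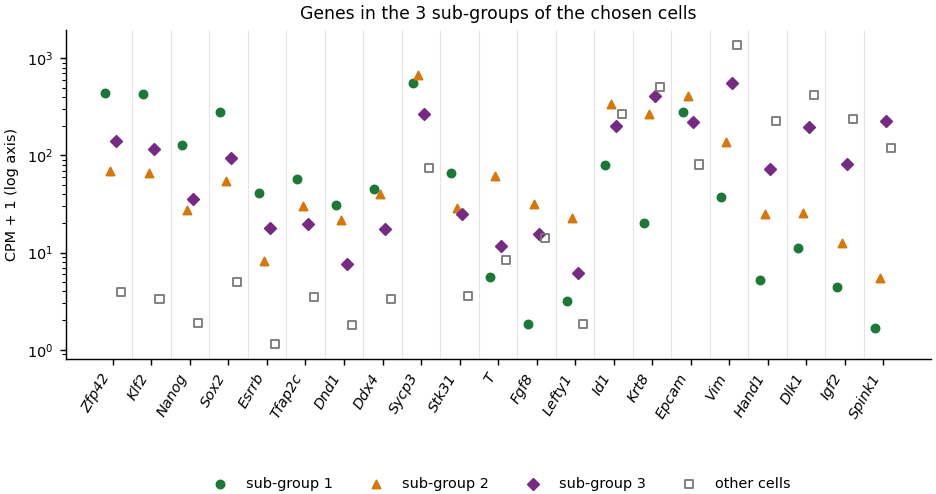
CPM + 1 (log axis) of genes named on the x axis in the 3 sub-groups of pluripotent cells (green circles, orange triangles, purple diamonds) and in the other day 5 cells (open squares), from summed UMIs. Naive genes (left) are highest in sub-group 1, *T*, *Fgf8* and *Lefty1* in sub-group 2, and *Spink1*, *Dlk1* and *Igf2* (right) are higher in sub-group 3 than in sub-groups 1 and 2.

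Pluripotent cells with a *Dppa3* UMI (203 cells, median 39235 UMIs) and without one (190 cells, median 30790.5 UMIs) differed in naive genes. The naive list without *Zfp42* was 1.97 times higher (1.90 to 2.04) in those with *Dppa3*, and 1.98 times with 2 UMIs as the limit. *Nanog* was at 80.7 against 47.3 CPM, and *Dazl* at 26.2 against 8.69 CPM. *Sycp3* was at 434 against 512 CPM and *Ddx4* at 32.3 against 30.9 CPM, and the late germ cell genes other than *Sycp3* summed to 205 against 148 CPM. The split by *Zfp42* was steeper. Cells with a *Zfp42* UMI (330 cells, median 38207 UMIs) had 4.98 times (4.53 to 5.49) the naive list, *Zfp42* itself left out, of those without (63 cells, median 27857 UMIs). In the 63 cells without *Zfp42* the streak list summed to 242 against 87.9 CPM, with *T* at 41.9 against 17.4 CPM, *Fgf8* at 52.2 against 8.21 CPM and the mesoderm regulator *Mesp1* at 30.7 against 5.13 CPM. The late germ cell sum was 613 CPM in cells without *Zfp42* and 654 CPM in those with it, and 96.1 and 192 CPM without *Sycp3*. Of its 9 genes, 2 were at least 2 times higher in the cells with *Zfp42*, *Stk31* (42.9 against 12.7 CPM) and *Dazl* (20.4 against 3.41 CPM). In the same split 12 of 18 naive genes, a list that holds *Zfp42* itself, were higher. So were 6 of 11 counted general pluripotency genes. The 1.85% of all genes given above belongs to another comparison, and no such share is given for this split. Whether any of these counts, 2 of 9, 12 of 18 or 6 of 11, is many or few therefore cannot be judged. Cells with a UMI of *Dppa3* or of *Zfp42* were deeper, and the part of depth in these splits was not tested.

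The same rule was met by 959 of 7202 cells on day 4 (13.3%, 12.5 to 14.1%), 29 of 5850 cells of day 6 (0.496%, 0.332 to 0.711%) and 1 of 8730 cells of day 11 (0.0115%, 0.00029 to 0.0638%), against the 5.31% of day 5. Median depths of these cells on days 4, 5 and 6 were 32668, 35755 and 46486 UMIs. At 5000 UMIs per cell the shares were 3.22%, 1.24% and 0.244%, and 0 of 8390 cells at day 11. For that 0 an approximate 1-sided upper limit, taken as 3 cells of 8390, was 0.0358%, which is not an exact interval. The order of the days was the same at both depths.

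*Pou5f1* in the cells of the rule was at 311, 309 and 464 CPM on days 4, 5 and 6. The naive list summed to 637, 1193 and 1279 CPM on these days, while *Zfp42* was at 116, 229 and 237 CPM and *Sox2* at 113, 150 and 230 CPM. Primed and streak genes ran the other way from day 4 to day 5. *Dnmt3b* was at 207 CPM (203 to 212) at day 4 and 43.7 CPM (40.5 to 47.0) at day 5, and at 151 CPM (133 to 171) in the 29 cells of day 6. Streak genes summed to 669, 107 and 102 CPM, with *T* at 125, 20.5 and 16.1 CPM and *Fgf8* at 192, 13.6 and 37.6 CPM. The cells other than those of the rule also had fewer streak transcripts after day 4 (565, 111 and 71.2 CPM). The primed list moved in the same directions in both sets. It summed to 553, 194 and 392 CPM in the cells of the rule and to 503, 280 and 608 CPM in the other cells on days 4, 5 and 6.

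The level of late germ cell genes was highest at day 5. In the cells of the rule their sums were 75.2, 649 and 78.3 CPM on days 4, 5 and 6, and 15.8, 179.8 and 25.7 CPM without *Sycp3*. *Sycp3* was at 59.4 CPM (57.0 to 61.9), 469 CPM (458 to 479) and 52.6 CPM (42.2 to 64.8). *Ddx4* was at 4.61, 31.7 and 5.38 CPM, *Mael* at 1.17, 26.4 and 4.18 CPM and *Dazl* at 2.27, 18.4 and 5.98 CPM. *Tex101* had 3 UMIs in the 959 cells of day 4, 645 UMIs in the 393 cells of day 5 and 1 UMI in the 29 cells of day 6. Early germ cell regulators did not have this pattern, with *Tfap2c* at 31.5, 34.4 and 71.1 CPM and *Dnd1* at 23.7, 18.2 and 52.6 CPM. The cells outside the rule also had the highest late germ cell sum at day 5 (15.97, 83.3 and 3.36 CPM on days 4, 5 and 6). Without *Sycp3* their sums were 2.16, 10.6 and 1.26 CPM. The cells of the rule were thus above the other cells on each of these days, and the ratio was largest in the 29 cells of day 6. Other transcripts stood apart in the day 5 library too. In cells outside the rule *Mt1* was at 44.1, 569 and 67.7 CPM, *Mt2* at 10.1, 288 and 3.23 CPM, and *Cdkn1a*, a p53 target gene, at 51.2, 289 and 60.01 CPM on the same days. Their epithelial list summed to 408, 1078 and 205 CPM and their p53 response list to 671, 1284 and 602 CPM. In the cells of the rule *Mt1* was at 577, 2927 and 1221 CPM. What part of the day 5 levels belongs to the library was not tested, and with 1 library per day it cannot be told apart from the day. Barcodes shared with the day 5 library numbered 13, 19 and 23 on days 4, 6 and 11.

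**Figure D5:**
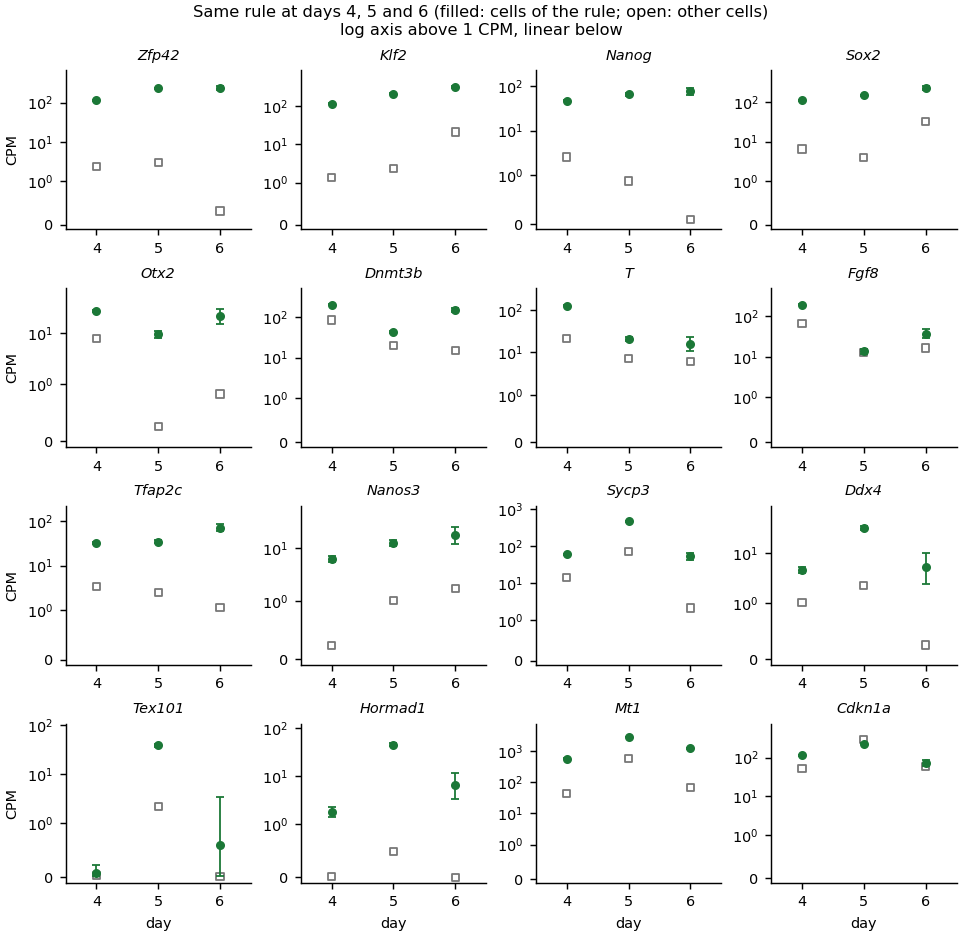
CPM of the genes named above each panel in the cells that met the same rule at days 4, 5 and 6 (filled points, 959, 393 and 29 cells, with exact 95% Poisson intervals) and in all other cells of each day (open squares), on an axis that is logarithmic above 1 CPM and linear below. *Zfp42*, *Klf2*, *Nanog* and *Sox2* are lowest at day 4, *T* and *Fgf8* highest at day 4, and *Sycp3*, *Ddx4*, *Tex101*, *Hormad1*, *Mt1* and *Cdkn1a* highest at day 5 in the cells of the rule.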

How the data were processed

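Single-cell RNA-seq was made from wild-type Zx1 gastruloids with 1 library per day. The deposited matrices hold UMI counts per gene and cell, which the authors made with Cell Ranger (3.1.0 and the mm10 genome per the submitters' notes, although the header of the day 11 matrix names 6.0.1) and did not normalise. Groups came from the day in the labels. The cells and the gene lists were chosen with earlier results of these data known.

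Cells with at least 2000 UMIs and under 20% mitochondrial UMIs were kept, which left 7202, 7408, 5850 and 8730 of 7324, 7794, 6628 and 9584 cells at days 4, 5, 6 and 11 (medians 25335, 28400.5, 25581 and 12082 UMIs). At day 5 the UMI minimum removed 302 cells and the mitochondrial limit 84. No doublets were removed. Doublet scores were computed for day 5 only, by simulating doublets and counting simulated neighbours, and the top 8% of cells were marked. UMIs were summed over each set of cells and divided by the set's total to give CPM, with exact Poisson intervals, and ratios of CPM with exact conditional binomial intervals, all at 95%. Deeper cells thus weigh more in a summed CPM. Sub-group 3 held 6798978 of the 16673024 UMIs of the pluripotent cells. A gene was called at a ratio of (CPM + 10) of 2 or more either way if it had 50 or more UMIs in the library. With 1 library per day no p-value was computed. Cells were grouped by the Leiden method on 2000 variable genes and 30 principal components (20 neighbours, resolution 1), without the rule genes, and the 393 pluripotent cells again at resolution 0.5. Shares were also computed after thinning each cell to 5000 UMIs, leaving out shallower cells (7244 of 7408 remained at day 5, the 393 among them).

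Genes named are the 4 rule genes, the 267 genes of 23 lists, the 15 others highest and 15 lowest at 100 CPM or more, and the 10 most like the rule genes. Exceptions are stated. The call rule was tried on simulated Poisson counts with known changes larger than its limit. Those counts had no variation between cells or libraries, so they do not check the calls against such variation. Python 3.11.15, numpy 2.4.6, scipy 1.17.1, pandas 2.3.3, leidenalg 0.10.2, igraph 0.11.9 and matplotlib 3.10.9 were used. Motifs were searched in RefSeq promoters of GRCm38.p6, the assembly that mm10 names.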

Additional observations from a re-analysis of the deposited data

How the results depend on the processing

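No called gene changed direction under the alternatives run per gene. The share of 5.31% stood within its interval with other UMI, mitochondrial and panel limits. It was 6.17% with 2 or more *Pou5f1* UMIs, 4.35% with 5 or more, 4.68% with the top 8% of doublet scores removed and 1.24% in thinned cells. On days 4, 6 and 11 the rule was met by 3.22%, 0.244% and 0% of thinned cells. The 287 higher and 127 lower genes became 1111 and 704 with a pseudocount of 1 CPM, 55 and 24 with 50 CPM, and 89 and 23 at a ratio of 3. Lower genes alone moved by over 1.5 times when doublet-scored cells were removed (231), in thinned cells (192), without sub-group 3 (332) and in cells under 50000 UMIs (273), the last 2 settings chosen after seeing the data. Of the 287 and 127 genes, thinned cells shared 244 and 124, cell means 284 of the higher genes, cells under 50000 UMIs and a comparison with cells without a *Pou5f1* UMI 286 each, and members of the most common group 126 of the lower genes. Of the named calls, 28 of 64 higher and 26 of 48 lower were lost with 50 CPM, a setting that needs larger CPM differences by its construction, and 0 with 1 CPM, with cell means, without doublet-scored cells or without sub-group 3. List medians moved by more than the counting interval of their genes in 4 to 16 of 23 lists by setting, and only medians near 0 (2-cell-like, neural, DNA methylation and *Nodal* lists) changed sign. No paired analysis was possible because there is 1 library per day. Depth limits co-detection of sparse genes, and nothing here has replicate error.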
